A study of Bos taurus with 6 samples.

Results

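The S100 genes encode small calcium binding proteins, and 10 of them were chosen by family and name: S100A1, S100A4, S100A6, S100A8, S100A9, S100A10, S100A11, S100A12, S100A13 and S100A16. Rows with 9 of these symbols were found among 34733 named genes, and S100A6 was not analysed here. RNA was measured in cells sorted from bovine (Bos taurus) endometrium, the inner layer of the womb, of healthy luteal phase uteri from slaughterhouses. Side population (SP) cells, which pump out the DNA dye Hoechst, were compared with main population (MP) cells, which keep it, in 3 libraries each. All came from a collagenase digest of endometrium (spelled Intracarrancular in the labels) freed of luminal epithelium, with dead cells gated out by propidium iodide, and no treatment other than the staining is given. The labels call this digest stromal and give no antibody gate, and they do not say that replicates came from separate animals, and a p-value then reflects just the spread of these samples, which may be technical.

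S100 proteins carry a pair of EF-hands, loops that hold calcium, and mostly act as dimers that open on binding calcium and then grip a target protein. S100A8 and S100A9 together form calprotectin, an abundant cytosolic protein of neutrophils and monocytes, and S100A12 is a further product of such cells that signals through the receptor AGER. S100A4, S100A10, S100A11, S100A13 and S100A16 are made by many cell types, among them fibroblasts, epithelium and endothelium, and S100A1 is best known from heart and skeletal muscle. S100A8, S100A9 and S100A12 are called the leukocyte members here and the other 7 the broadly expressed members.

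Levels are in FPKM (fragment numbers divided by transcript length and library size), so levels of different genes can be compared. Fragment totals were not used here. From the lowest values, SP replicates 2 and 3 were estimated to be 1.61 and 1.83 times as deep as SP replicate 1. The estimates for MP replicates 1 to 3 were 2.32, 3.22 and 1.99 times, so statements on genes near 0 are taken as weaker in SP. The estimate assumes that the most frequent ratio of low values stands for 1 fragment in each library, which was not tested. Of the 12127 genes that reached 1 FPKM in 3 or more libraries, 39.2% differed between the populations by limma at a Benjamini-Hochberg threshold of 0.05, with 20.5% above and 18.7% below MP in the SP libraries. With each library rescaled to an equal sum, the median difference of all genes moved from 0.0075 to 0.20 on the log2 scale, and 68.1% of the calls were higher in SP against 52.3% as deposited. Markers of several cell types were present in the libraries, and fibroblast markers fell in 13 of 16 tested, monocyte and macrophage markers fell in 15 of 18, and endothelial markers rose in 17 of 18. In bulk RNA, fewer cells of a type and less RNA per cell cannot be told apart.

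Of the 9 S100 members with a row, 8 passed the filter on low values; 6 of these fell in SP, none rose and 2 did not pass the test. The background is 18.7% of all tested genes lower and 20.5% higher in SP. At an unadjusted p under 0.05 the counts were the same, 6 lower and 0 higher. The SP and MP values of 6 members did not overlap, with SP below in each, against 54.8% of all tested genes, 26.5% with SP below and 28.3% with SP above. S100A8 was under 1 FPKM in every SP library and entered the test only because all MP values reached 1 FPKM, so its direction was fixed by the filter. Of the 7 other tested members 5 fell. Among these, S100A12 reached 1 FPKM in SP replicate 3 alone of the SP libraries, so it too met the filter mainly through MP. The leukocyte members S100A12 and S100A8 fell, S100A9 was too low to test, and among the broadly expressed members S100A4, S100A11, S100A13 and S100A1 fell while S100A10 and S100A16 did not pass. The median log2 difference was −2.87 over the 2 leukocyte members tested and −0.95 over the 6 broadly expressed members tested. The leukocyte median is partly set by the filter, as it holds S100A8 and leaves out S100A9, which was at −0.33 with no filter. The difference between these sets was not tested. The number of members called lower ranged from 2 to 4 when 1 library was left out, with 4, 3 and 4 without SP replicates 1, 2 and 3 and 3, 2 and 3 without MP replicates 1, 2 and 3. In the fits without an MP library S100A8 failed the filter and could not be called. The number called lower was 3 when no filter on low values was applied and 4 with rescaling to an equal sum. Of all tested genes, 9.80% to 16.3% were lower in SP when 1 library was left out, 9.95% with no filter and 12.6% with rescaling. S100A12 and S100A4 were called in each of their 16 alternative analyses.

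**Figure D1:**
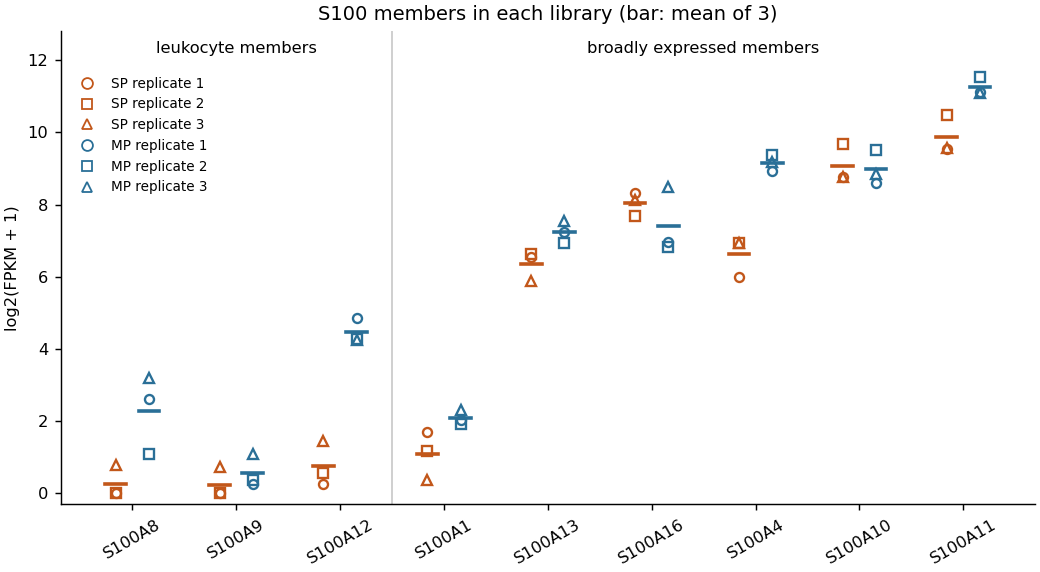
FPKM of the 9 S100 members in each library on the log2(FPKM + 1) scale, with SP in orange and MP in blue, a symbol for each replicate and a bar for the mean of 3 libraries. The SP points of S100A12 and S100A4 all lie below the MP points, whereas those of S100A10 overlap, and S100A9 lies near 0 in both populations.

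S100A12 (chromosome 3, 17102238 to 17104176, build ARS-UCD1.2), the ligand of AGER, was at 0.201, 0.492 and 1.72 FPKM across SP replicates 1 to 3, against 27.9, 18.4 and 18.0 FPKM across the MP replicates in that order. The populations did not overlap, and SP replicate 3 was the highest of the SP libraries. Its log2 difference, SP minus MP, was −3.70 ± 0.35 (SE; limma adjusted p = 0.00100), from means of 0.806 ± 0.809 (SP) against 21.4 ± 5.62 FPKM (MP) (± SD, n = 3 a group). Every log2 difference is taken on log2(FPKM + 1), a scale that understates changes of low genes.

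S100A8 (chromosome 3, 17085830 to 17086812) is listed at 0 in SP replicates 1 and 2 and was at 0.720 FPKM in SP replicate 3, against 5.14, 1.12 and 8.09 FPKM in MP replicates 1 to 3. MP replicate 2 lay nearest to SP. A log2 difference of −2.03 ± 0.52 was fitted (SE; limma adjusted p = 0.0199). The call was lost without SP replicate 1 (limma adjusted p = 0.0650), without SP replicate 2 (0.0599) and with no filter on low values (0.0555), and without any 1 of the MP libraries the gene was not tested.

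S100A9 (chromosome 3, 17115128 to 17117961), the partner of S100A8 in calprotectin, is listed at 0 in SP replicates 1 and 2 and was at 0.670 FPKM in SP replicate 3. In MP replicates 1 to 3 it was at 0.205, 0.294 and 1.13 FPKM, so the populations overlapped. Tested with no filter on low values, it did not pass (limma adjusted p = 0.466). Multiplied by the estimated relative depth of each library, the 4 values above 0 stood at 1, 1.99, 2.59 and 4.73 times the lowest of them. No difference was detected at these low values, and the part of depth in this was not tested.

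In each MP library the order was S100A12 above S100A8 above S100A9. The ratio of S100A12 to S100A8 was 5.43, 16.4 and 2.23 in MP replicates 1 to 3 and 2.39 in SP replicate 3. Thus the calprotectin pair was the lower part of the leukocyte set, and together the 3 genes made up 0.427% to 0.984% of the summed FPKM of the 9 members in MP and 0.0121% to 0.189% in SP.

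Markers of neutrophils and of monocytes and macrophages are given beside these values. Of 20 neutrophil markers listed, 16 had a row, and LTF, which encodes lactoferrin, did not pass the test (limma adjusted p = 0.437), except without SP replicate 3 (0.0443). The summed level of the 16 was 3.32 to 12.4 FPKM in SP against 21.6 to 27.3 FPKM in MP. Defining neutrophil genes were low, and 8 of the 16 were under 1 FPKM in every library: MMP8 is listed at 0 in all 6 libraries, the granule peroxidase gene MPO in the 3 SP libraries and MP replicate 3, and the chemokine receptor gene CXCR2 was at 0.428 to 0.670 FPKM in MP. Others reached higher values in MP, with LCN2 at up to 3.58, BPI at up to 3.50, AZU1 at up to 2.05, ELANE at up to 1.57 and CXCR1 at up to 1.23 FPKM, while none of these 5 exceeded 0.521 FPKM in SP. The 20 monocyte and macrophage markers summed to 171 to 218 FPKM in SP against 761 to 1298 FPKM in MP, and for 9 of the 18 tested the filter fixed the direction. Most of the SP sum came from CD14, CTSS and CD68, which did not pass and are named after their values were seen. Mean levels in SP and MP were 97.6 and 63.7 FPKM for CD14, 64.7 and 55.3 for CTSS and 22.4 and 33.3 for CD68. TYROBP, an adaptor of myeloid receptors, was at 0.620 ± 0.640 (SP) against 75.2 ± 32.6 FPKM (MP) (± SD, n = 3 a group; limma adjusted p = 0.000329). These neutrophil genes were singled out after their values were seen, and the part of these cells in the S100 values was not tested.

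By Pearson correlation of log2(FPKM + 1) over the 6 libraries, the tested genes most like S100A12, the most abundant leukocyte member, were SFRP1 (r = 0.999), IGFBP5 (r = 0.999) and THY1 (r = 0.999). SFRP1, a secreted inhibitor of Wnt proteins, was at 3.58, 4.13 and 8.06 FPKM across SP replicates 1 to 3, against 58.9, 46.3 and 42.1 FPKM across the MP replicates in that order. The likeness lies in the gap between the populations, in SP replicate 3 as the highest of SP and in MP replicate 1 as the highest of MP, and the points share their libraries and the split of the groups. IGFBP5 encodes a binding protein of insulin-like growth factors and THY1 a surface protein of fibroblasts and lymphocytes.

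Among the broadly expressed members, S100A11 (chromosome 3, 18728742 to 18733582), a dimer known to bind annexin A1, had the highest level in both populations. It was at 743, 1430 and 758 FPKM across SP replicates 1 to 3, against 2200, 2983 and 2164 FPKM across the MP replicates in that order. Replicate 2 was the highest of its population in both, and the populations did not overlap. The log2 difference was −1.38 ± 0.32 (SE; limma adjusted p = 0.0141), a mean level 2.51 times as high in MP; without MP replicate 2 the call was lost (limma adjusted p = 0.0566). S100A11 ranked 106 to 203 among all named genes in SP libraries and 49 to 76 in MP libraries.

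The tested genes most like S100A11 over the 6 libraries were DHRS12 (r = 0.998), IFNGR2 (r = 0.996) and FAM98C (r = 0.996). IFNGR2, a chain of the interferon gamma receptor, was at 25.2, 43.8 and 26.2 FPKM across SP replicates 1 to 3, against 69.7, 93.8 and 62.5 FPKM across the MP replicates in that order. As for S100A11, replicate 2 was the highest in each population. The IFNGR2 call was lost without SP replicate 1 (limma adjusted p = 0.0533) and without MP replicate 2 (0.0547).

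S100A4 (chromosome 3, 16824260 to 16826547), which binds the heavy chain of non-muscle myosin and is made by fibroblasts and many leukocytes, stood at 63.0, 121 and 121 FPKM across SP replicates 1 to 3. In MP replicates 1 to 3 it was at 484, 663 and 580 FPKM, well above every SP value. The log2 difference was −2.54 ± 0.31 (SE; limma adjusted p = 0.00218), a mean level 5.67 times as high in MP. The median fibroblast marker stood at 13.9, 14.5 and 27.6 FPKM across SP replicates 1 to 3, against 379, 118 and 127 FPKM across the MP replicates in that order. Where 18.7% of all tested genes were lower in SP, 8 of 9 tested T and NK cell markers fell, 6 of the 9 with a direction fixed by the filter. The ninth, CCL5, a chemokine named after its values were seen, was at 2771, 917 and 330 FPKM across SP replicates 1 to 3, against 183, 445 and 239 FPKM across the MP replicates in that order, overlapped and did not pass (limma adjusted p = 0.0786). Without SP replicate 3 it was called higher in SP (0.0225), as it was with rescaling to an equal sum (0.0306). With CCL5 in it, the T and NK cell list summed to 335 to 2772 FPKM in SP, against 268 to 682 FPKM in MP. Among the 3 MP libraries, MP replicate 1 had the highest fibroblast median and the lowest S100A4. The part of fibroblasts and of T and NK cells in the S100A4 difference was not tested.

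S100A13 (chromosome 3, 16756579 to 16763331), which takes part in the release of the growth factor FGF1, was at 93.2, 97.7 and 57.9 FPKM across SP replicates 1 to 3, against 150, 121 and 187 FPKM across the MP replicates in that order. The populations did not overlap, but the gap was small. The log2 difference was −0.89 ± 0.29 (SE; limma adjusted p = 0.0417). The call was lost without any 1 library, at limma adjusted p = 0.0721, 0.0604 and 0.113 without SP replicates 1, 2 and 3 and 0.0961, 0.0606 and 0.0994 without MP replicates 1, 2 and 3, and it was lost with rescaling to an equal sum (0.0603). It held in 6 of 16 alternatives, over adjusted p from 0.0256 to 0.113.

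S100A1 (chromosome 3, 16751807 to 16756163), a regulator of the calcium pump of muscle, was low in all libraries, at 2.24, 1.26 and 0.301 FPKM across SP replicates 1 to 3, against 3.09, 2.79 and 4.00 FPKM across the MP replicates in that order. The SP values spread more than the MP values. For S100A1 the log2 difference was −1.01 ± 0.34 (SE; limma adjusted p = 0.0498), and the call held in 2 of 15 alternatives, over adjusted p from 0.0318 to 0.131. Of the fits without 1 library it held without SP replicate 1 (0.0318) and was lost without SP replicates 2 and 3 (0.0972 and 0.131) and without any 1 MP replicate (adjusted p from 0.0891 to 0.109).

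S100A10 (chromosome 3, 18757676 to 18773422) is the member whose EF-hands have lost the ability to bind calcium, and it pairs with annexin A2 at the cell membrane. It was at 437, 816 and 432 FPKM across SP replicates 1 to 3, against 386, 736 and 456 FPKM across the MP replicates in that order. The values overlapped throughout, and replicate 2 was high in both populations. The log2 difference was 0.08 with a 95% interval from −0.73 to 0.90 (limma adjusted p = 0.862), an interval that reaches into both directions, and the sign turned to −0.012 with quantile normalization, to −0.22 without SP replicate 2 and to −0.11 without MP replicate 1. Its listed locus is shared with LOC112445948, which is at or near 0 in every library.

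By their median, epithelial markers were also highest in replicate 2 of each population. In SP, however, replicate 3 lay near replicate 2, while for S100A10 and S100A11 it lay near replicate 1. The median of the epithelial markers was at 11.1, 58.5 and 49.5 FPKM across SP replicates 1 to 3, against 39.3, 85.4 and 33.2 FPKM across the MP replicates in that order. None of 13 tested passed (limma, 0 at an unadjusted p under 0.05), where 39.2% of all tested genes did. EPCAM, an adhesion protein of epithelium, had a log2 difference of −0.19 and CLDN4, a tight junction protein, was at 372 ± 306 (SP) against 1246 ± 1108 FPKM (MP) (± SD, n = 3 a group). The part of epithelium in the levels of S100A10 and S100A11 was not tested.

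S100A16 (chromosome 3, 16769090 to 16776634), a widely expressed member, was at 317, 206 and 279 FPKM across SP replicates 1 to 3, against 123, 112 and 357 FPKM across the MP replicates in that order. MP replicate 3 held the highest value of all 6 libraries, while the other MP values were below every SP value. The log2 difference was 0.63 with a 95% interval from −0.41 to 1.66 (limma adjusted p = 0.290). Without MP replicate 3 S100A16 was called higher in SP, at a log2 difference of 1.16 (limma adjusted p = 0.0184). MP replicate 3 also had the highest endothelial markers of MP, with medians of 8.08, 18.2 and 63.2 FPKM in MP replicates 1 to 3 against 157, 98.5 and 103 FPKM in SP replicates 1 to 3, and their part in the S100A16 values was not tested.

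**Figure D2:**
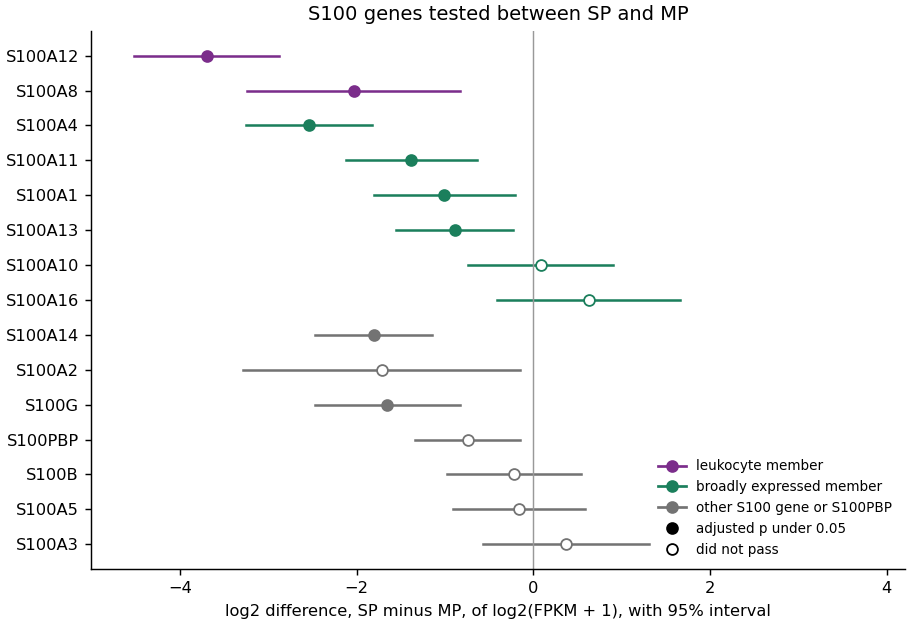
Log2 difference of SP minus MP with its 95% interval for the 15 S100 genes tested, the leukocyte members in purple, the broadly expressed members in green and the other genes in grey, with filled points for an adjusted p under 0.05. S100A12 lies lowest at −3.70, and S100A10 and S100A16 are the members whose intervals span 0.

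The order of the levels thus differed between the populations. In SP the means ran from S100A11 (977 FPKM) to S100A10 (562), S100A16 (267), S100A4 (102) and S100A13 (82.9), followed by S100A1 (1.27), S100A12 (0.806), S100A8 (0.240) and S100A9 (0.223). In MP they ran from S100A11 (2449 FPKM) to S100A4 (576), S100A10 (526), S100A16 (197) and S100A13 (153), followed by S100A12 (21.4), S100A8 (4.78), S100A1 (3.29) and S100A9 (0.542). Several neighbours were not apart: in SP the ranges of S100A4 and S100A13 overlapped, as did those of S100A11 and S100A10 although S100A11 was the higher in all 3 libraries, and so did the ranges of the 4 lowest genes, each with its neighbour. In MP the ranges of S100A4 and S100A10, of S100A16 and S100A13 and of S100A8 and S100A1 overlapped.

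The 9 members together summed to 1652 to 2671 FPKM in SP, 0.190% to 0.357% of all named genes, and to 3380 to 4637 FPKM in MP, 0.392% to 0.537%. The S100A11 share of the sum was 44.9% to 53.5% in SP, against 57.3% to 65.1% in MP. The share of S100A4 was 3.80% to 7.33% in SP and 14.3% to 15.4% in MP, while that of S100A10 was 26.2% to 30.5% in SP and 11.4% to 15.9% in MP. S100A16 took 7.70% to 19.1% in SP and 2.41% to 9.45% in MP. The shares of S100A11, S100A4 and S100A10 did not overlap between the populations, and those of S100A16 did.

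**Figure D3:**
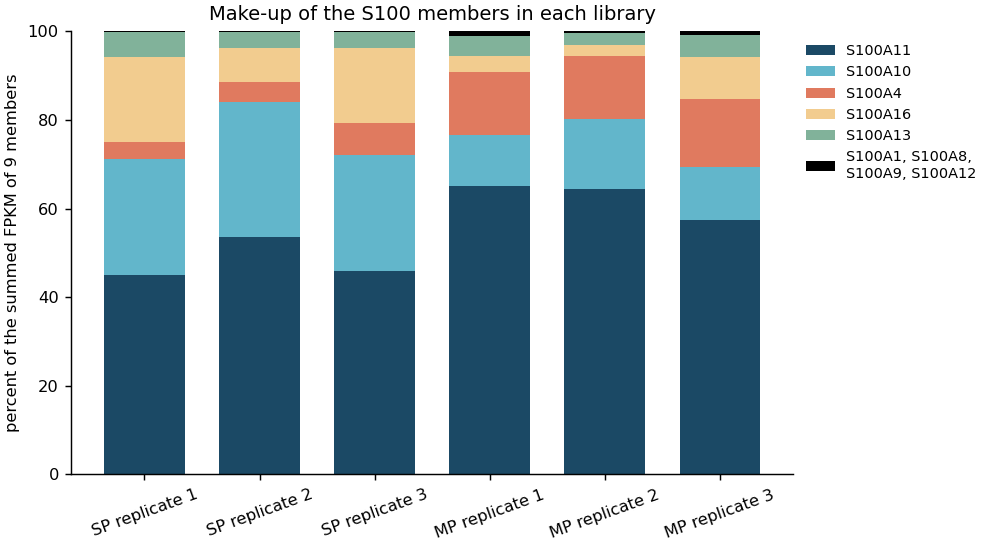
Share of each member in the summed FPKM of the 9 S100 members, as stacked bars from 0 to 100 percent for each library. S100A10 takes a larger and S100A4 a smaller part in the 3 SP libraries than in the 3 MP libraries.

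Ratios of genes within a library do not depend on the scaling between libraries. They were chosen after the values were seen and are given as a description. The ratio of S100A11 to S100A10 was 1.70, 1.75 and 1.75 in SP replicates 1 to 3 and 5.70, 4.06 and 4.75 in MP replicates 1 to 3, so it was nearly constant in SP although the level of both genes in SP replicate 2 was far above that in the other SP libraries. The ratio of S100A4 to S100A10 was 0.144, 0.148 and 0.280 in SP and 1.25, 0.902 and 1.27 in MP replicates 1 to 3. Neither ratio overlapped between the populations. The ratios of S100A13 and of S100A16 to S100A10 overlapped, at 0.120 to 0.213 in SP and 0.165 to 0.411 in MP for S100A13, and at 0.252 to 0.725 in SP and 0.152 to 0.783 in MP for S100A16.

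Annexins are calcium dependent membrane binding proteins and the main partners of several S100 dimers. Of 12 listed, 10 were tested, 3 fell and none rose, at an unadjusted p under 0.05 as well, where 18.7% of all tested genes were lower and 20.5% higher in SP. The median log2 difference was −0.61 against 0.0075 for all tested genes. ANXA6 was at 8.97 ± 2.68 (SP) against 36.8 ± 20.6 FPKM (MP) and ANXA5 at 140 ± 15.6 and 231 ± 48.6 FPKM (± SD, n = 3 a group; limma adjusted p = 0.0130 and 0.0461), and ANXA9 fell with a direction fixed by the filter. The ANXA5 call was lost without any 1 library (limma adjusted p from 0.0588 to 0.137), with rescaling to an equal sum (0.172) and with quantile normalization (0.0561). ANXA2, the partner of S100A10, was at 1149 ± 301 (SP) against 793 ± 67.2 FPKM (MP) (± SD, n = 3 a group) and did not pass (limma adjusted p = 0.147), though with rescaling to an equal sum it was called higher (0.0386). The ratio of S100A10 to ANXA2 was 0.404 to 0.551 in SP and 0.529 to 0.852 in MP and overlapped, and so did that of S100A11 to its partner ANXA1, at 2.53 to 3.95 in SP and 1.90 to 7.29 in MP. The ratio of S100A11 to ANXA2 was 0.688 to 0.967 in SP and 2.75 to 3.45 in MP and did not overlap. ANXA1 and ANXA2 are named for the ratios, after their values were seen.

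**Figure D4:**
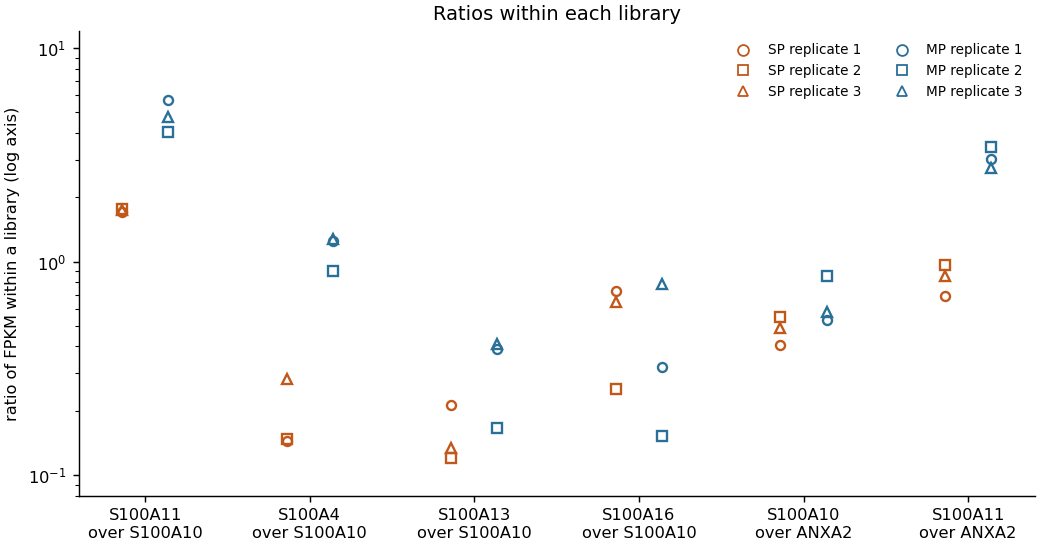
Ratios of FPKM within each library on a log axis, with SP in orange, MP in blue and a symbol for each replicate. The 3 SP ratios of S100A11 to S100A10 lie between 1.70 and 1.75, below all MP ratios, and the ratios of S100A10 to ANXA2 overlap.

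Of 25 listed receptors and other partners of S100 proteins, 19 were tested, 3 rose and 7 fell, 4 of the 7 that fell with a direction fixed by the filter (median log2 difference 0.30). All tested genes held 20.5% higher and 18.7% lower. BSG, basigin, a receptor described for S100A9, was at 178 ± 10.2 (SP) against 412 ± 37.9 FPKM (MP) (± SD, n = 3 a group; limma adjusted p = 0.00544) and fell. MYH9, the myosin heavy chain bound by S100A4, moved the other way to S100A4, at 134 ± 3.79 (SP) against 39.7 ± 9.92 FPKM (MP) (± SD, n = 3 a group; log2 difference 1.76 ± 0.25 SE, limma adjusted p = 0.00325). CD69, an activation marker of lymphocytes, and SYT1, a synaptotagmin that joins the S100A13 release complex, were under 1 FPKM in every SP library and fell, with log2 differences of −1.60 and −2.74.

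Further receptors of the leukocyte members, TLR4 and AGER, are named after their values were seen. TLR4, which calprotectin can engage, was at 43.4 ± 14.8 (SP) against 15.8 ± 12.4 FPKM (MP) (± SD, n = 3 a group) and rose (limma adjusted p = 0.0366). The TLR4 call was lost without SP replicates 1, 2 and 3 (limma adjusted p = 0.115, 0.0618 and 0.0742), without MP replicates 1 and 2 (0.106 and 0.107) and with no filter on low values (0.0829). AGER, the receptor of S100A12, was at 2.89 ± 2.09 (SP) against 1.23 ± 0.985 FPKM (MP) (± SD, n = 3 a group) and did not pass (limma adjusted p = 0.190).

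Among other proteins with EF-hands, 38 of 45 listed were tested, 15 fell and 2 rose (median log2 difference −0.44). All tested genes held 18.7% lower in SP. AIF1, a macrophage protein, had a log2 difference of −5.06 with a direction fixed by the filter. CALM3, a calmodulin gene, was at 15.1 ± 1.36 (SP) against 53.0 ± 11.9 FPKM (MP), and PEF1, a penta-EF-hand protein, at 9.83 ± 1.13 and 28.2 ± 3.41 FPKM (± SD, n = 3 a group; limma adjusted p = 0.00304 and 0.00394). PPP3R1, the regulatory subunit of the phosphatase calcineurin, rose, at 72.2 ± 15.2 (SP) against 22.6 ± 6.40 FPKM (MP) (± SD, n = 3 a group; limma adjusted p = 0.00538).

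Of 11 further genes listed, S100PBP among them, 9 had a row and 7 were tested; 2 fell, none rose and 5 did not pass, where 18.7% of all tested genes were lower in SP. At an unadjusted p under 0.05, 4 were lower and 0 higher. S100A14, an epithelial member beside S100A16 on the chromosome, was at 13.2, 15.1 and 15.2 FPKM across SP replicates 1 to 3, against 72.5, 36.5 and 56.8 FPKM across the MP replicates in that order (log2 difference −1.81 ± 0.28 SE, limma adjusted p = 0.00437). S100G, calbindin-D9k, a hormone regulated protein of the uterus, was at 127, 89.3 and 214 FPKM across SP replicates 1 to 3, against 486, 320 and 494 FPKM across the MP replicates in that order (log2 difference −1.65 ± 0.36 SE, limma adjusted p = 0.0113). Both were called in each of their 16 alternatives, and the values of both did not overlap between the populations. The listed locus of S100G spans 113286 bases and overlaps that of another gene, so its reads may not be told apart from those of that gene.

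S100A2, found in epithelium, was at 14.8, 92.7 and 68.9 FPKM across SP replicates 1 to 3, against 102, 276 and 127 FPKM across the MP replicates in that order, and did not pass (limma adjusted p = 0.0769). S100B, best known from glia, was at 64.2 ± 13.9 (SP) against 77.3 ± 26.5 FPKM (MP) (± SD, n = 3 a group), with a log2 difference of −0.22 and a 95% interval from −0.98 to 0.54. S100A3 and S100A5 did not pass either (limma adjusted p = 0.492 and 0.707), nor did S100PBP, which encodes a binding partner of S100P and is no S100 protein itself (0.0511). S100A7, an epidermal member, was at most 2.70 FPKM and was not tested, like S100Z, which is listed at 0 in 5 of the 6 libraries.

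All 9 members with a row lie on chromosome 3, in a cluster that S100A1 opens and S100A9 closes 363 kb further on, with S100A11 and S100A10 apart from it, 1977 and 2006 kb from the start of S100A1. Along this stretch the differences were not of one kind. S100A14 fell while its neighbour S100A16 did not pass, and the ratio of S100A14 to S100A16 was 0.0417 to 0.0734 in SP and 0.159 to 0.589 in MP. S100A11 fell while S100A10, next to it, did not pass. S100A8, S100A12 and S100A9 sit side by side at the far end.

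Of 20 listed genes of the flanks, 12 were tested, 3 rose and 2 fell, near the 20.5% and 18.7% of all tested genes, with a median log2 difference of 0.11. For 1 of the 2 that fell, the direction was fixed by the filter. CHTOP, an RNA export factor next to S100A1, was at 116 ± 8.81 (SP) against 69.6 ± 6.51 FPKM (MP) (± SD, n = 3 a group; limma adjusted p = 0.0259) and rose, as did GATAD2B, a subunit of the NuRD complex, and NPR1, a natriuretic peptide receptor (limma adjusted p = 0.00550 and 0.0368). The CHTOP call was lost without SP replicates 1, 2 and 3 and MP replicates 1 and 2, where limma gave an adjusted p of 0.0519 to 0.0831, and that of NPR1 without SP replicates 1 and 2 and MP replicates 1 and 2 (0.0764 to 0.111). SNAPIN, a SNARE binding protein, fell (log2 difference −1.08 ± 0.21 SE, limma adjusted p = 0.00842). Between S100A5 and S100A7 lies LOC618256, a locus without a gene name in the files, at 2.13 to 4.18 FPKM in SP against 5.59 to 10.5 FPKM in MP (limma adjusted p = 0.0461), a call lost without any 1 library (0.0643 to 0.145) and with rescaling to an equal sum (0.115).

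**Figure D5:**
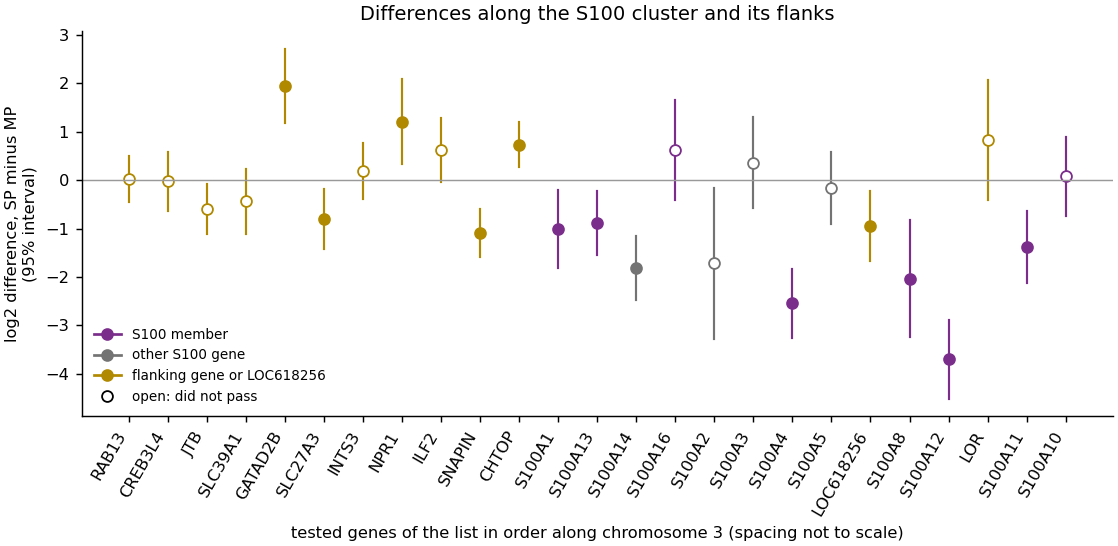
Log2 difference of SP minus MP with its 95% interval for the tested S100 genes and flanking genes in their order along chromosome 3, with spacing not to scale and filled points for an adjusted p under 0.05. S100A1 and S100A13 lie below 0 beside CHTOP above 0, and S100A16 and S100A10 stand out from lower neighbours.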

How the data were processed

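RNA of SP and MP cells, 3 libraries each, was sequenced as stranded poly(A) libraries converted for MGI sequencing, per the labels' protocols. The values deposited by the authors are FPKM per gene and library, per the file headers; no step that scales libraries to each other is stated. The submitters' processing notes name cutadapt 2.5, HISAT2 2.1.0 and ARS-UCD1.2 as the genome; which tool computed FPKM, with which annotation and strand setting, is not given in the sources used here. Since FPKM is relative within a library, abundant genes can shift the rest. Column names contain micro in the MP files and not in the SP files, with a meaning not given; anything it marks cannot be told apart from the population. An exact 0 can be a failed estimate, and such genes are called listed at 0. A row without a gene name, which held 0.185% to 1.91% of the values, was left out.

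Genes that reached 1 FPKM in 3 or more libraries were tested on log2(FPKM + 1) by limma 3.58.1 under R 4.3.3 (lmFit and trended eBayes, without covariates, two-sided), with Benjamini-Hochberg adjustment over all 12127 genes and a threshold of 0.05; calls and the verbs rose and fell rest on it. An exact permutation test (two-sided) with 3 libraries a group cannot go below p = 0.1 and was not used for calls. Tested on simulated data for SP against MP (12127 genes, 50 changed at each size), the fit recovered 12%, 74%, 88% and 88% of genes with log2 changes of 1, 2, 3 and 4, and 6.43% of its calls were unchanged genes. Only genes with a mean log2(FPKM + 1) above 4 were changed, so these rates do not cover low members such as S100A8, S100A12 and S100A1. The changed genes were also a far smaller part than the 39.2% called in the data, so the rates may differ there.

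The members and lists were chosen with earlier results of these data known. Named were all members, other S100 genes reaching 1 FPKM, up to 4 called genes of each list by smallest p (or the 2 with the highest mean level where none was called), and the 3 genes most correlated with the most abundant leukocyte and broadly expressed member; other names are marked as chosen after their values were seen. Results for some genes of the lists are not reported here. Other lists, for T and NK, B and plasma, mast, pericyte and smooth muscle cells, served as markers. Positions follow the files, counted from 1, and span whole loci, introns included. Chromosome names came from a RefSeq table (assembly ARS-UCD2.0), in which 18 of 21 S100 symbols were found. Relative depth is the most frequent ratio of low values (under 0.5 FPKM) between libraries in loci of 600 to 4000 bases. Alternatives covered the pseudocount, filter, scaling, variance model, replicate block and leaving out each library.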

Additional observations from a re-analysis of the deposited data

How the results depend on the processing

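The number of genes called between SP and MP was 4759 and lay between 2421 and 4455 when 1 library was left out. The number of S100 members called lower in SP was 6. It was 3 with no filter on low values, 4 with rescaling to an equal sum and 2 to 4 with 1 library left out. The share of all tested genes lower in SP also fell, from 18.7% to 9.95% with no filter, to 12.6% with rescaling and to 9.80% to 16.3% with 1 library left out. No member was called higher in SP by limma, against 0 to 1 with 1 library left out and 1, S100A16, with the replicate block and rescaling to an equal sum together. The cause was not tested, except that fewer samples entered the fits without a library. In the fits without an MP library S100A8 also failed the filter and could not be called.

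Among differences that did not pass, the sign of S100A10 turned with quantile normalization (−0.012) and ranged from −0.22 to 0.35 with 1 library left out. That of S100A5 turned with quantile normalization (0.057) and ranged from −0.35 to 0.20, and that of EPCAM turned with rescaling (0.027, with and without the replicate block) and ranged from −1.11 to 0.87. Over the single genes whose alternatives were compared, these 3 included, 936 alternative values kept direction and side of the threshold, 83 lost and 17 gained a call and 9 changed sign.

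The replicate numbers of the titles were checked as pairs. Deviations from the group means correlated at 0.105, 0.533 and −0.0854 for numbers 1, 2 and 3, and not every library correlated best with its own number. With 3 libraries a group, this check cannot tell whether libraries of the same number share an animal. The column names of the files number SP and MP alike, and neither they nor the labels tie a number to an animal. With the replicate block 4793 genes were called and 4 members were lower in SP, without S100A1 (limma adjusted p = 0.0643) and S100A13 (0.0696), while S100A2 (0.0203), CLDN4 (0.0216) and AGER (0.0380) were called and NPR1 (0.0556) was not. Depth limits what can be said of S100A8 and S100A9, which are listed at 0 in SP replicates 1 and 2.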

Other observations

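Of 5 tested mast cell markers 4 fell, 2 of the 5 with a direction fixed by the filter, and CPA3, the protease carboxypeptidase A3, had a log2 difference of −5.55 (limma adjusted p = 0.000241). The summed B and plasma cell markers held 1.76 to 5.10 FPKM in SP, against 27.1 FPKM in MP replicate 1 and 168 FPKM in MP replicate 3, with MP replicate 2 between SP and these. Of 10 tested pericyte and smooth muscle markers 7 fell and none rose, with sums of 244 to 440 FPKM in SP and 1157 to 2001 FPKM in MP. Beside these counts, 18.7% of all tested genes were lower and 20.5% higher in SP.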
